A study of Rattus norvegicus with 6 samples.

Results

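The genes described here are 37 that are known from microglia and macrophages, measured in cultures of retinal ganglion cells (RGCs), whose axons form the optic nerve. They were taken by symbol from a fixed list, and all 37 are among the 17366 transcripts of the deposited table, which holds 1 transcript per gene symbol. The cultures came from Sprague Dawley rats with the age label P5 and were kept for 10 days. In 3 libraries they had then received 1 µg/ml of Chrdl1 (chordin-like 1, a secreted antagonist of bone morphogenetic proteins) for 12 h, and in 3 libraries the vehicle, which held 0.1% BSA and 4 mM HCl. Each title carries 1 of 3 digit codes, and each code is shared by 1 vehicle and 1 Chrdl1 library. These pairs are named A, B and C here, by ascending code, and sets of 3 values follow that order. The labels state neither what a code means nor whether libraries came from separate cultures or animals, so the p-values reflect only the spread among the 6 libraries, which may be technical. The extraction protocol names visual cortex, while every other label names RGC cultures.

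Microglia are the resident macrophages of the brain and retina. They arise from the yolk sac, depend on the growth factor receptor encoded by Csf1r and on the transcription factor PU.1, encoded by Spi1, and clear debris, synapses and dying cells through complement, Fc receptors and lysosomes. In the intact nervous system they are marked by Cx3cr1, P2ry12 and Tmem119, 3 genes whose expression is known to fall when microglia are placed in culture. Other macrophages share most of the remaining genes, and Cd163 and Mrc1 are used as markers of macrophages along vessels.

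The read totals behind the FPKM scale (fragments per kilobase of transcript, scaled to the library's read total) were recovered from the steps between the deposited values and ran from 14546600 (vehicle, pair B) to 26551800 (vehicle, pair C). At 1 kilobase of transcript, 3 reads, taken as the detection floor, are worth 0.113 to 0.206 FPKM. The 14 RGC markers in the table had a summed level of 3705 to 4966 FPKM in the 6 libraries, with Sncg at 1095, 819 and 1003 FPKM in vehicle and 1105, 841 and 827 FPKM in Chrdl1 libraries. Gfap, the astrocyte intermediate filament, did not exceed 1.24 FPKM in any library. The 13 astrocyte and Müller glia markers, Gfap among them, had a summed level of 71.7 to 172.6 FPKM. Markers of the labelled neurons were thus well above the members in summed level, and the 37 members together made up 0.0646% to 0.415% of all FPKM.

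Most members were detected in all 6 libraries, at levels that differed widely between the pairs. Their summed level was 1127, 228.5 and 1255 FPKM in vehicle and 967.4, 177.8 and 1186 FPKM in Chrdl1 libraries. Both libraries of pair B lay far under the other 4. In bulk samples such as these, fewer cells of a type and less RNA per cell cannot be told apart. Gpnmb, Lgmn, Adgre1 and Fcer1g had the highest mean levels and together held 48.0% to 60.3% of the summed level. At the other end, Cx3cr1, P2ry12, Tmem119 and Cd163 did not reach 1 FPKM in 3 libraries and were not tested. The other 33 members passed this filter. Of these, 8 were under 1 FPKM in both libraries of pair B and passed only through pairs A and C, so their difference between the pairs was partly fixed by the filter. They were Ptprc, Cd4, Fcgr1a, Cd14, Ly86, Cybb, Pld4 and Mrc1.

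**Figure D1:**
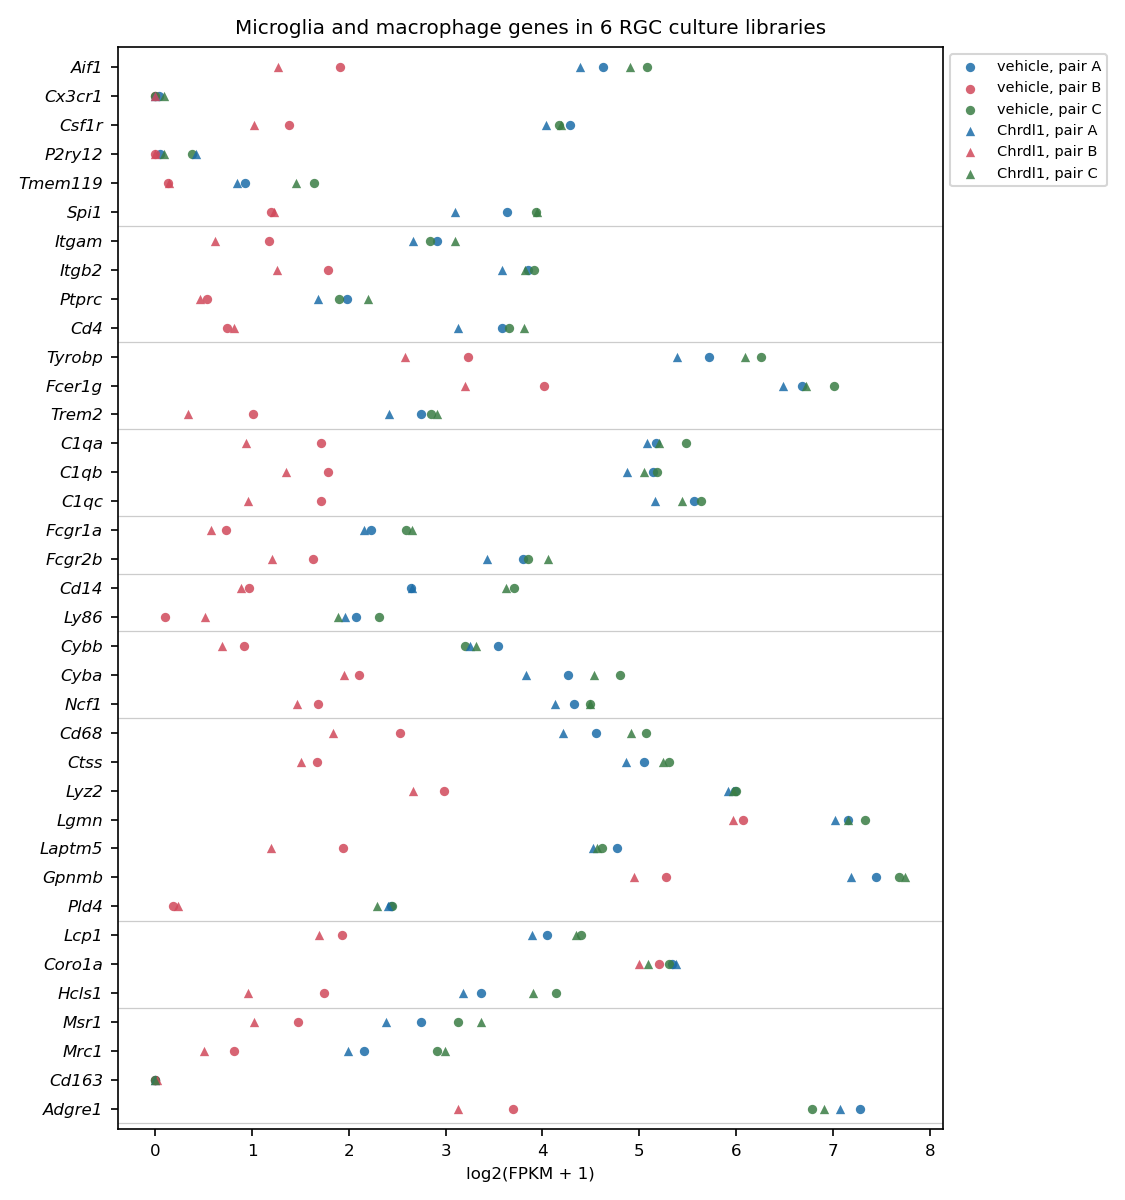
log2(FPKM + 1) (horizontal axis) of the 37 members (vertical axis, grouped by role with grey lines between roles) in the 3 vehicle (circles) and 3 Chrdl1 (triangles) libraries, coloured by pair. The libraries of pair B lie to the left of the other 4 for 34 of 37 members. The exceptions are Coro1a, at 30.9 to 40.5 FPKM in the 6 libraries, and Cx3cr1 and Cd163, which lie near 0.

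To show the sequence context of the members, the 250 bases before the start of each gene were taken from RefSeq (build GRCr8), where 23 of the 37 members had an entry. The 23 include Coro1a, Cx3cr1 and Cd163, for which pair B was not below all other libraries. PU.1 binds sites built around GAGGAA, and this motif was searched on both strands (TTCCTC is the same motif on the other strand). It was present in 14 of the 23 members' windows, or 60.9%, against 23.2% of 27457 promoters and 22.7% of the 7959 promoters of tested transcripts. The longer form GAGGAAGT, which contains GAGGAA, was in 1 member window (Ctss) and in 2.04% of all promoters. A match describes these letters only and is not a measured binding site. Shown are Itgam, C1qb and Mrc1, each with the motif at 2 places, Ctss with the longer form and Lyz2 with 1 near the start. Lgmn, also shown, held none and, after Coro1a, differed least between the pairs. C1qa, not shown, held none either and had some of the largest differences between the pairs. Whether the motif goes with the size of the difference was not tested. The windows are Itgam at chr1:192089342-192089591 (+ strand), C1qb at chr5:154407828-154408077 (- strand), Mrc1 at chr17:82157475-82157724 (+ strand), Ctss at chr2:185775146-185775395 (+ strand), Lyz2 at chr7:54798012-54798261 (- strand) and Lgmn at chr6:127347329-127347578 (- strand), printed 5′ to 3′ toward the start of the gene, with the motif in capitals.
Itgam: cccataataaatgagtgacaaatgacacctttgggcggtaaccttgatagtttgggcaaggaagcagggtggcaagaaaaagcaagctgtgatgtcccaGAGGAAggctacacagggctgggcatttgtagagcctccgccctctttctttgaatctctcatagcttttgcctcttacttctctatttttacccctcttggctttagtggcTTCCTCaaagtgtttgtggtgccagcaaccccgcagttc
C1qb: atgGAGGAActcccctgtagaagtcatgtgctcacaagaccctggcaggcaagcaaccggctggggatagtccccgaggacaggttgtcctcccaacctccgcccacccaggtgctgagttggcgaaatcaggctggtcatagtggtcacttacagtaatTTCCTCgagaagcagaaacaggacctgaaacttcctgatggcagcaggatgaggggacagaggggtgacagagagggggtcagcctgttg
Mrc1: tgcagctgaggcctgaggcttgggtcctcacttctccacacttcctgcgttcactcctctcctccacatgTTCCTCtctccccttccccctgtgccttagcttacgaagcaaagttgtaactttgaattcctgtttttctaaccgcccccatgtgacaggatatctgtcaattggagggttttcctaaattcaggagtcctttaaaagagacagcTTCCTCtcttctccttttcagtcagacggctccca
Ctss: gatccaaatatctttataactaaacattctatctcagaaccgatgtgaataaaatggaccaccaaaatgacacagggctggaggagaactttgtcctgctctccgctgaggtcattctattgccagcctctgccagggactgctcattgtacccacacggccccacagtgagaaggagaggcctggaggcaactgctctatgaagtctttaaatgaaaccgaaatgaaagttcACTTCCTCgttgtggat
Lyz2: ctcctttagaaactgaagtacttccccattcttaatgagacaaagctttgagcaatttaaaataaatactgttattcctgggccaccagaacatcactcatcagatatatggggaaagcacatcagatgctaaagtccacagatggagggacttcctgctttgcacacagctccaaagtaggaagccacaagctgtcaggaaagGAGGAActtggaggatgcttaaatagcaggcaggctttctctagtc
Lgmn: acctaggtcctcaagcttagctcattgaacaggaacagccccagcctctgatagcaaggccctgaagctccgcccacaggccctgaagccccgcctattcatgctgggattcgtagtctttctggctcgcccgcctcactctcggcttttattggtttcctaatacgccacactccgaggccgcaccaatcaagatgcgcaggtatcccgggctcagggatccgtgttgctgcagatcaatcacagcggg
In Lyz2 the motif ended 40 bases before the start, in Ctss 9 bases before it and in Itgam 145 and 33 bases before it.

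The genes used to mark microglia in the intact tissue were among the lowest of the set. Cx3cr1, the receptor for the neuronal chemokine Cx3cl1, had 1, 0 and 0 reads in vehicle and 0, 0 and 2 reads in Chrdl1 libraries, 3 in all, and its FPKM did not exceed 0.063. P2ry12, the nucleotide receptor by which microglial processes find injury, had 1, 0 and 10 reads in vehicle and 10, 0 and 2 reads in Chrdl1 libraries, or at most 0.344 FPKM, and 0 reads in pair B. For Cx3cr1 and P2ry12, 3 reads are worth 0.0855 to 0.156 and 0.0906 to 0.165 FPKM, so Cx3cr1 was not detectable above the floor in any library. Tmem119, a membrane protein of microglia, was at 0.906, 0.0950 and 2.12 FPKM in vehicle and 0.792, 0.101 and 1.74 FPKM in Chrdl1 libraries. It was detectable in pairs A and C and rested on 3 and 5 reads in pair B. Cd163, the haemoglobin scavenger receptor, had 1 read in all 6 libraries, so none of them was above its floor of at most 0.0490 FPKM.

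Genes shared by microglia and other macrophages were well detected. Aif1, which encodes the actin-binding protein Iba1 used to stain microglia, was at 23.6, 2.75 and 32.8 FPKM in vehicle and 19.9, 1.42 and 28.8 FPKM in Chrdl1 libraries. Csf1r, the receptor for the survival factors Csf1 and Il34, was at 18.5, 1.61 and 17.0 FPKM in vehicle and 15.4, 1.02 and 17.3 FPKM in Chrdl1 libraries. The 2 lowest libraries for both genes were those of pair B, and their values did not overlap with the others. Spi1 had 25 and 41 reads in pair B against 235 to 504 reads in the other libraries.

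Whether the level of these genes differed between cultures with different title codes was tested on all transcripts with limma on log2(FPKM + 1), with treatment as a covariate, 2 libraries per code and an adjusted p (Benjamini-Hochberg) under 0.05 as the threshold. The codes differed widely in general: 4930 of 10390 tested transcripts, or 47.4%, passed the F test. Of the 33 tested members 32 passed, the exception being Coro1a. In the narrower comparison, pair B was lower than pair A and lower than pair C, each past the threshold, for 32 tested members, where 9.96% of all tested transcripts were. Without the 8 members that passed the filter only through pairs A and C, this held for 24 of 25, where it held for 8.32% of the 10129 tested transcripts of at least 1 FPKM in a library of pair B. Without a filter on low values the F test called 33 of 37 members, adding Tmem119, where it called 28.7% of 14171 transcripts above 0. By level alone, both libraries of pair B were under the other 4 for 34 of 37 members, against 18.5% of those 14171 transcripts. Members of 1 library share its RNA, so these counts are not independent of each other.

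The members' differences were larger than the median over all tested transcripts. The median log2(FPKM + 1) difference of pair B from pair A was -2.20 over the tested members and 0.026 over all tested transcripts. Against pair C the medians were -2.67 and -0.030. As a ratio of mean FPKM, pair A was above pair B by 1.20 (Coro1a) to 27.5 times (Pld4) with a median of 7.21, and pair C by 1.07 to 28.3 times with a median of 10.7. Over all tested transcripts the median ratios were 0.979 and 1.02. A fall in pair B of over 2 log2 units against both other pairs was found in 58 tested transcripts, and 22 of them were members. The members' medians include the 8 members that passed the filter only through pairs A and C, and the 22 include Cd4, Cybb and Pld4. The differences of the 8 from pair B were partly fixed by the filter.

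**Figure D2:**
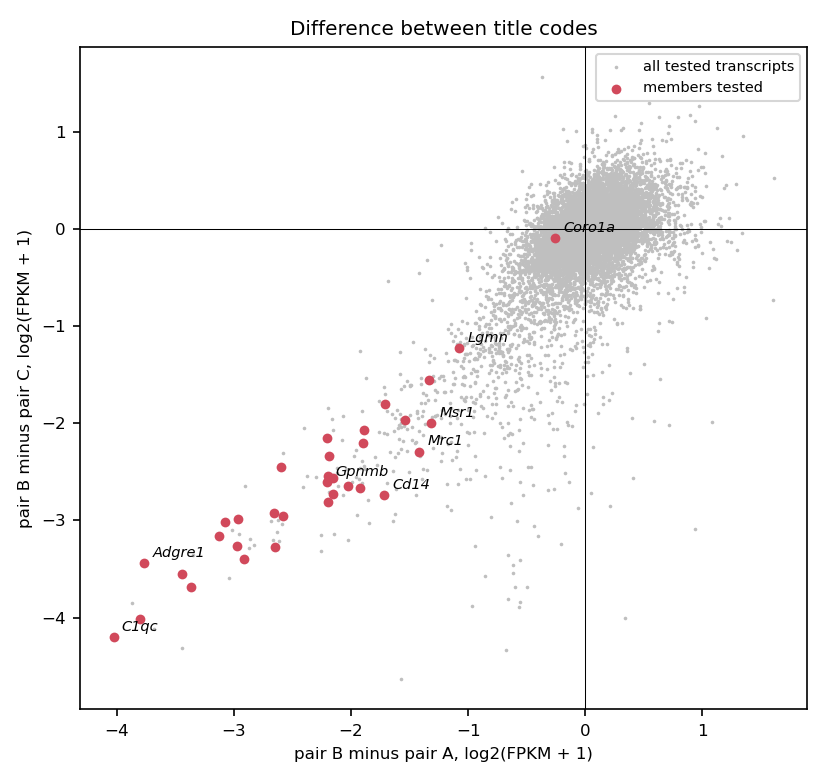
Difference in log2(FPKM + 1) of pair B from pair A (horizontal axis) and from pair C (vertical axis), each point the mean of 2 libraries per pair, for 10390 tested transcripts (grey) and the 33 tested members (red, 8 of them named). The members run along the lower left from Lgmn at -1.07 and -1.23 to C1qc at -4.03 and -4.20, and Coro1a lies in the main cloud.

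Among the members, C1qc and C1qa had the largest log2(FPKM + 1) differences of pair B from A and from C. C1qa, C1qb and C1qc encode the subunits of C1q, which tags synapses and debris and starts the classical complement pathway. C1qc was at 46.4, 2.28 and 48.6 FPKM in vehicle and 34.7, 0.939 and 42.5 FPKM in Chrdl1 libraries, with 34 and 22 reads in pair B. C1qa was at 35.0, 2.27 and 43.9 FPKM in vehicle and 32.8, 0.921 and 35.7 FPKM in Chrdl1 libraries. Their log2 difference of pair B from pair A was -4.03 ± 0.12 and -3.80 ± 0.14 (SE), and from pair C -4.20 ± 0.12 and -4.02 ± 0.14. The limma adjusted p for the codes (F test) was 8.82e-11 and 3.11e-10. The third chain, C1qb, was at 34.4, 2.44 and 35.2 FPKM in vehicle libraries. Pairs A and C did not differ past the threshold for any of the 3 chains, with log2 differences of C from A of 0.22 ± 0.14, 0.11 ± 0.10 and 0.18 ± 0.12 for C1qa, C1qb and C1qc.

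The signalling adaptors Fcer1g and Tyrobp were also lowest in pair B, at higher levels. Fcer1g, the common gamma chain of Fc receptors, was at 101, 15.2 and 128 FPKM in vehicle and 88.7, 8.17 and 104 FPKM in Chrdl1 libraries. Tyrobp, the adaptor also called DAP12 that carries the signal of Trem2, was at 51.6, 8.36 and 75.3 FPKM in vehicle and 40.9, 4.98 and 67.2 FPKM in Chrdl1 libraries. Trem2, a receptor for lipids and apolipoproteins, was lower, at 5.68, 1.02 and 6.22 FPKM in vehicle and 4.32, 0.266 and 6.54 FPKM in Chrdl1 libraries. Fcer1g and Tyrobp fell in pair B by log2 differences of -2.98 ± 0.12 and -2.65 ± 0.11 from pair A and -3.26 ± 0.12 and -3.27 ± 0.11 from pair C. Trem2 in pair B rested on 17 and 7 reads.

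The surface and adhesion genes were lower in level. Itgb2, the beta chain of the integrin CR3, was at 13.4, 2.46 and 14.1 FPKM in vehicle and 10.9, 1.39 and 13.1 FPKM in Chrdl1 libraries. Its partner Itgam, or CD11b, was at 6.500, 1.26 and 6.14 FPKM in vehicle and 5.34, 0.536 and 7.54 FPKM in Chrdl1 libraries. Cd4, which macrophages and microglia of rats carry as well as helper T cells, was at 10.98, 0.673 and 11.6 FPKM in vehicle and 7.74, 0.755 and 13.04 FPKM in Chrdl1 libraries. Ptprc, the leukocyte phosphatase CD45, was the lowest, with 0.378 to 3.59 FPKM. Pair B was below the other pairs for all 4, with log2 differences of -2.19 ± 0.13 (Itgb2) and -2.58 ± 0.15 (Cd4) from pair A. Cd4 and Ptprc passed the filter only through pairs A and C, so their differences from pair B were partly fixed by it. In the T and NK cell list, 10 of 11 markers were under 1 FPKM in all libraries. Cd3e and Nkg7 were at 0 in all 6, and Lck was at 2.401, 2.41 and 2.04 FPKM in vehicle and 2.41, 1.94 and 1.92 FPKM in Chrdl1 libraries.

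The receptors for antibody and bacterial products were also lowest in pair B. Fcgr1a, Cd14 and Ly86 are among the members tested only through their levels in pairs A and C. Their values are therefore given without reading the tests against pair B. Fcgr2b, the inhibitory Fc receptor, was at 12.9, 2.09 and 13.4 FPKM in vehicle and 9.72, 1.30 and 15.6 FPKM in Chrdl1 libraries. Fcgr1a, the high-affinity Fc receptor, was at 3.69, 0.665 and 5.04 FPKM in vehicle and 3.45, 0.493 and 5.29 FPKM in Chrdl1 libraries. Fc receptor genes are close relatives, and how the authors assigned reads shared between them is not given in the sources used here. Cd14, the co-receptor for lipopolysaccharide, was at 5.22, 0.962 and 12.0 FPKM in vehicle and 5.31, 0.845 and 11.3 FPKM in Chrdl1 libraries. Ly86, or MD-1, which pairs with the Toll-like protein CD180, was at 3.21, 0.0740 and 3.97 FPKM in vehicle and 2.90, 0.424 and 2.71 FPKM in Chrdl1 libraries, and its levels in pair B rested on 1 and 9 reads. Cd14 was called higher in pair C than in pair A, by 1.02 ± 0.13 log2 units (limma adjusted p = 1.07e-04).

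The phagocyte NADPH oxidase, which makes superoxide, was represented by Cyba, Ncf1 and Cybb. Cyba (p22phox) was at 18.2, 3.29 and 27.0 FPKM in vehicle and 13.2, 2.85 and 22.2 FPKM in Chrdl1 libraries. Ncf1 (p47phox) was at 19.0, 2.20 and 21.4 FPKM in vehicle and 16.4, 1.75 and 21.5 FPKM in Chrdl1 libraries. Cybb, the catalytic subunit gp91phox, was at 10.7, 0.890 and 8.20 FPKM in vehicle and 8.55, 0.618 and 8.97 FPKM in Chrdl1 libraries. All 3 were lowest in pair B, with no overlap with the other libraries. Their log2 differences of B from C were -2.65 ± 0.11, -2.92 ± 0.11 and -2.45 ± 0.14. That of Cybb was partly fixed by the filter, which it passed only through pairs A and C.

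Of the lysosomal genes, Gpnmb and Lgmn had the highest levels and relative differences smaller than those of most members. Gpnmb, a glycoprotein of phagocytic macrophages and pigment cells, was at 173, 37.7 and 204 FPKM in vehicle and 145, 29.8 and 214 FPKM in Chrdl1 libraries. Lgmn, or legumain, a protease of lysosomes in many cell types, was at 142, 66.1 and 160.3 FPKM in vehicle and 129, 61.4 and 141 FPKM in Chrdl1 libraries. Pair A exceeded pair B by 4.71 times for Gpnmb and 2.12 times for Lgmn. By contrast it exceeded pair B by 14.9 times for the protease gene Ctss, 9.96 times for the lysozyme gene Lyz2 and 11.7 times for Laptm5. Cd68, a stain for phagocytic cells, stood at 5.44 times. Pld4, an endolysosomal nuclease, had 4 and 8 reads in pair B against 186 to 233 reads elsewhere. Of the 7 lysosomal members, the 6 other than Pld4 were at least 1 FPKM in a library of pair B, and all 6 were called lower there than in pairs A and C.

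Of the genes for the actin cytoskeleton of blood cells, 1 differed little. Coro1a, or coronin 1A, was at 39.4, 36.0 and 38.6 FPKM in vehicle and 40.5, 30.9 and 33.0 FPKM in Chrdl1 libraries, a log2 difference of B from A of -0.26 ± 0.088 and from C of -0.10 ± 0.088. Its limma adjusted p was 0.0725 over the codes, 0.0456 for B against A, which passed the threshold, and 0.444 for B against C. Over the codes it passed with each library centred on its median, with voom, and without either library of pair C. Coro1a is also expressed by T cells and has been described in neurons. Lcp1, or L-plastin, was at 15.5, 2.82 and 20.1 FPKM in vehicle and 13.9, 2.23 and 19.3 FPKM in Chrdl1 libraries, and Hcls1 ran from 0.949 to 16.6 FPKM. Both were lowest in pair B. Within pair B, Coro1a was above Fcer1g, at 33.4 against 11.7 FPKM as pair means, while in pair A it was below it, at 40.0 against 95.04 FPKM.

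The scavenger and tissue macrophage genes ended with Adgre1, which encodes the F4/80 antigen of macrophages. It was at 155, 11.9 and 109 FPKM in vehicle and 133, 7.75 and 119 FPKM in Chrdl1 libraries, a log2 difference of B from A of -3.77 ± 0.12 and from C of -3.44 ± 0.12. Msr1, the scavenger receptor A, was at 5.70, 1.78 and 7.75 FPKM in vehicle and 4.21, 1.03 and 9.27 FPKM in Chrdl1 libraries. Mrc1, the mannose receptor, was at 3.46, 0.753 and 6.495 FPKM in vehicle and 2.98, 0.420 and 6.97 FPKM in Chrdl1 libraries. Adgre1 was far higher than the other scavenger genes in all libraries, and it was 1 of 5 tested members whose mean was lower in pair C than in pair A, at 0.792 times.

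Pairs A and C lay closer to each other in these genes than either did to pair B, and pair C was the higher for some. Across the 37 members, log2(FPKM + 1) of pair means correlated at 0.987 between A and C, 0.844 between A and B and 0.833 between B and C. The gap was smaller by rank correlation, at 0.985, 0.912 and 0.928 in the same order. These are descriptions over genes that share their libraries. Of the tested members, 13 were called higher in pair C than in pair A and 0 lower, where 21.0% of all tested transcripts were called higher and 9.94% lower. The ratio of C to A ran from 0.792 to 2.22 with a median of 1.22, against 1.06 over all tested transcripts. The highest were Cd14 at 2.22 times, Mrc1 at 2.09 and Hcls1 at 1.76. Csf1r and Lyz2 were at 1.01 and 1.02 times.

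Other macrophage genes, from a list kept apart from the members, were also lowest in pair B in most cases. Of 86 listed, 80 were in the table and 58 were tested, and 52 of the 58 were called lower in pair B than in A and in C (9.96% of all tested transcripts). Genes of this list that passed the filter only through pairs A and C were not set apart, so this count may be partly fixed by the filter. The list was also chosen with earlier results of these data known. Apoe, the apolipoprotein secreted by macrophages and astrocytes, was at 1133, 104 and 1489.8 FPKM in vehicle and 908, 58.9 and 1273 FPKM in Chrdl1 libraries. Ctsb, a lysosomal protease, was at 733, 494 and 822 FPKM in vehicle and 684, 479 and 755 FPKM in Chrdl1 libraries. Ctsd, another, was at 328, 182 and 368 FPKM in vehicle and 308, 168 and 332 FPKM in Chrdl1 libraries. Pair B was lowest for these 3 genes, with no overlap. Ccl3, a chemokine, was at 108, 32.7 and 235.6 FPKM in vehicle and 86.4, 20.7 and 203 FPKM in Chrdl1 libraries. Grn, the progranulin gene, was at 54.2, 26.6 and 60.6 FPKM in vehicle and 49.1, 21.8 and 50.5 FPKM in Chrdl1 libraries. Pair B was again lowest for both. Lgals3, or galectin-3, was near level, at 77.2, 67.6 and 80.8 FPKM in vehicle and 72.3, 68.1 and 79.8 FPKM in Chrdl1 libraries, and was called lower in pair B than in C but not than in A (limma adjusted p = 0.0285 and 0.191). With Chrdl1, 0 of the 58 passed the test, 45 had a negative difference and the median of the 58 was -0.10. Of all 10390 tested transcripts, 6401 had a negative difference, and their median was -0.028.

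Ligands by which neurons are known to act on microglia were also measured. Cd200, the ligand of the inhibitory receptor Cd200r1, was at 118, 109 and 97.8 FPKM in vehicle and 121, 111 and 94.1 FPKM in Chrdl1 libraries. Cd47, the signal against phagocytosis read by Sirpa, was at 46.2, 41.8 and 42.8 FPKM in vehicle and 48.6, 40.2 and 49.6 FPKM in Chrdl1 libraries. Cx3cl1 ran from 4.89 to 7.82 FPKM. Csf1 was at 4.76, 4.41 and 5.56 FPKM in vehicle and 4.22, 4.57 and 7.11 FPKM in Chrdl1 libraries, and Il34 did not exceed 1.04 FPKM. Cx3cl1 and Csf1 were called lower in pair B than in C, with log2 differences of -0.46 ± 0.12 and -0.41 ± 0.14, and Cd200 and Cd47 did not pass between pair B and either other pair. Il34 was not tested. Of all 22 tested ligands, receptors and complement genes, 9 were called lower in pair B than in both other pairs, against 9.96% of all tested transcripts, and Sirpa was among them. C3, the central complement component, was also among them, at 71.5, 11.1 and 78.6 FPKM in vehicle and 59.6, 5.91 and 86.1 FPKM in Chrdl1 libraries. Genes of this list that passed the filter only through pairs A and C were not set apart either.

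Markers of other cell types moved between the pairs in part. The mural and fibroblast list also had its lowest sums in pair B, at 220.2, 41.7 and 339.5 FPKM in vehicle and 205.5, 28.2 and 320.5 FPKM in Chrdl1 libraries, led by the smooth muscle genes Tagln and Acta2. For 8 of its 11 genes both libraries of pair B were under the other 4, and Col1a2 was at 0 in all 6. The astrocyte and Müller glia sums were 103.8, 78.1 and 168.7 FPKM as pair means, and the photoreceptor sums 7.47, 5.85 and 104.0 FPKM. Both libraries of pair B were under the other 4 for 4 of 13 astrocyte and Müller genes and 6 of 12 photoreceptor genes, and pair C was the highest for both sums. By this measure 18.5% of the 14171 transcripts above 0 were lowest in pair B. In these lists 6 of the 13 and 7 of the 12 genes were under 1 FPKM in all libraries. Endothelial sums were 3.87, 2.87 and 10.4 FPKM as pair means, with 8 of 10 genes under 1 FPKM in all libraries. Amacrine and bipolar cell sums were lowest in pair A, at 139.0, 176.7 and 192.1 FPKM, and oligodendrocyte lineage sums were near level, at 35.9, 35.7 and 34.7 FPKM. The RGC sums were 4955, 3951 and 3945 FPKM. B cell markers did not exceed a sum of 2.99 FPKM, with Ms4a1 at 0 in all libraries and Cd79b at 2.04, 0.114 and 2.10 FPKM in vehicle and 1.64, 0.145 and 1.48 FPKM in Chrdl1 libraries. Neutrophil and mast cell markers did not exceed a sum of 8.87 FPKM, and 4 of the 11 were at 0. Proliferation genes were low, with Mki67 at most 0.230 FPKM, and their sums were 31.1, 30.4 and 39.9 FPKM as pair means. The part of these cells, of depth and of RNA quality in the level of the members was not tested.

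**Figure D3:**
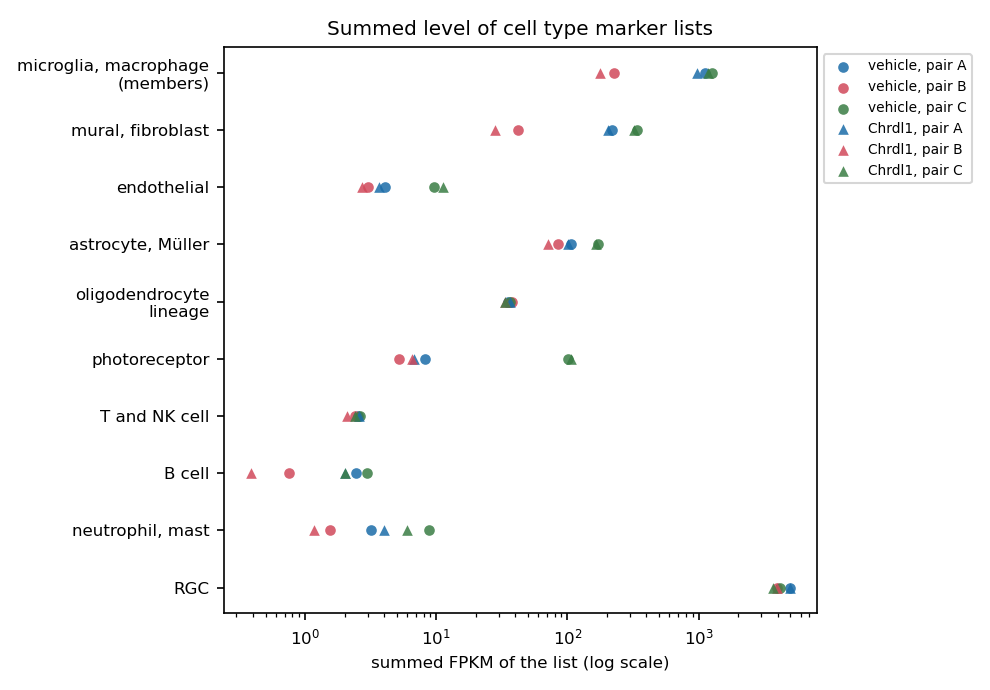
Summed FPKM (horizontal axis, log scale) of the 37 members and of 9 marker lists (vertical axis) in each library, circles for vehicle and triangles for Chrdl1, coloured by pair. Pair B is lowest for the members at 177.8 and 228.5 FPKM and for mural and fibroblast genes at 28.2 and 41.7 FPKM. It is also lowest for the astrocyte and Müller, endothelial, photoreceptor, B cell, and neutrophil and mast lists. For the RGC, oligodendrocyte lineage, and T and NK cell lists it is not below all others. The RGC sums lie between 3705 and 4966 FPKM.

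Chrdl1 was compared with vehicle to see whether 12 h of added protein alters these genes. In the limma test with treatment as the only term, 0 of 33 tested members passed, as did 0% of the 10390 tested transcripts. The limma adjusted p of the members was at least 0.9998, and 0 members were at an unadjusted p under 0.05, where 18 of all tested transcripts were. C1qc, for example, had a vehicle mean of 32.4 ± 26.1 FPKM (SD, n = 3) and a Chrdl1 mean of 26.1 ± 22.1, a log2 fold change of -0.45 ± 1.48 (SE). Adgre1 had a vehicle mean of 92.1 ± 73.0 FPKM (SD, n = 3) and a Chrdl1 mean of 86.7 ± 68.8, or -0.22 ± 1.30. The SEs of the members had a median of 0.87, against 0.16 over all tested transcripts, and the members' 95% intervals ran from a median of -2.30 to 1.89. This fit leaves the pairs out, so the low level of pair B enters the SEs. It therefore cannot tell a small change of these genes from none.

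Each of the 33 tested members had a negative mean difference in this fit. The median was -0.18, against -0.028 over all tested transcripts, of which 6401 of 10390 were negative. With quantile normalization 32 of 33 were negative at a median of -0.13, and with voom on the recovered reads 32 of 33 at a median of -0.45, or 31 at -0.098 with voom and the block. Dropping 1 library, which leaves the codes unbalanced, gave 9, 33 and 1 negative without vehicle libraries A, B and C and 33, 1 and 33 without those of Chrdl1. With a whole pair left out, 30, 32 and 31 were negative. Of the 33, 15 were lower with Chrdl1 in all 3 pairs and 0 were higher in all 3. Of all tested transcripts, 19.5% were lower in all 3 and 784 of 10390 were higher in all 3. Members of 1 library share its RNA, so the counts of members in this paragraph are not counts of independent genes. In pair A 31 members were lower, with a median of -0.24 against -0.013 over all tested transcripts. In pair B 29 were lower (-0.33 against -0.022). In pair C 19 were lower, and the members' median was near that of all tested transcripts (-0.056 against -0.055). Of all 10390 tested transcripts, 5835, 5863 and 6295 were lower in pairs A, B and C, so the pair C count was near the general share. The summed level of the 37 members with Chrdl1 was 0.858, 0.778 and 0.945 times that of vehicle.

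**Figure D4:**
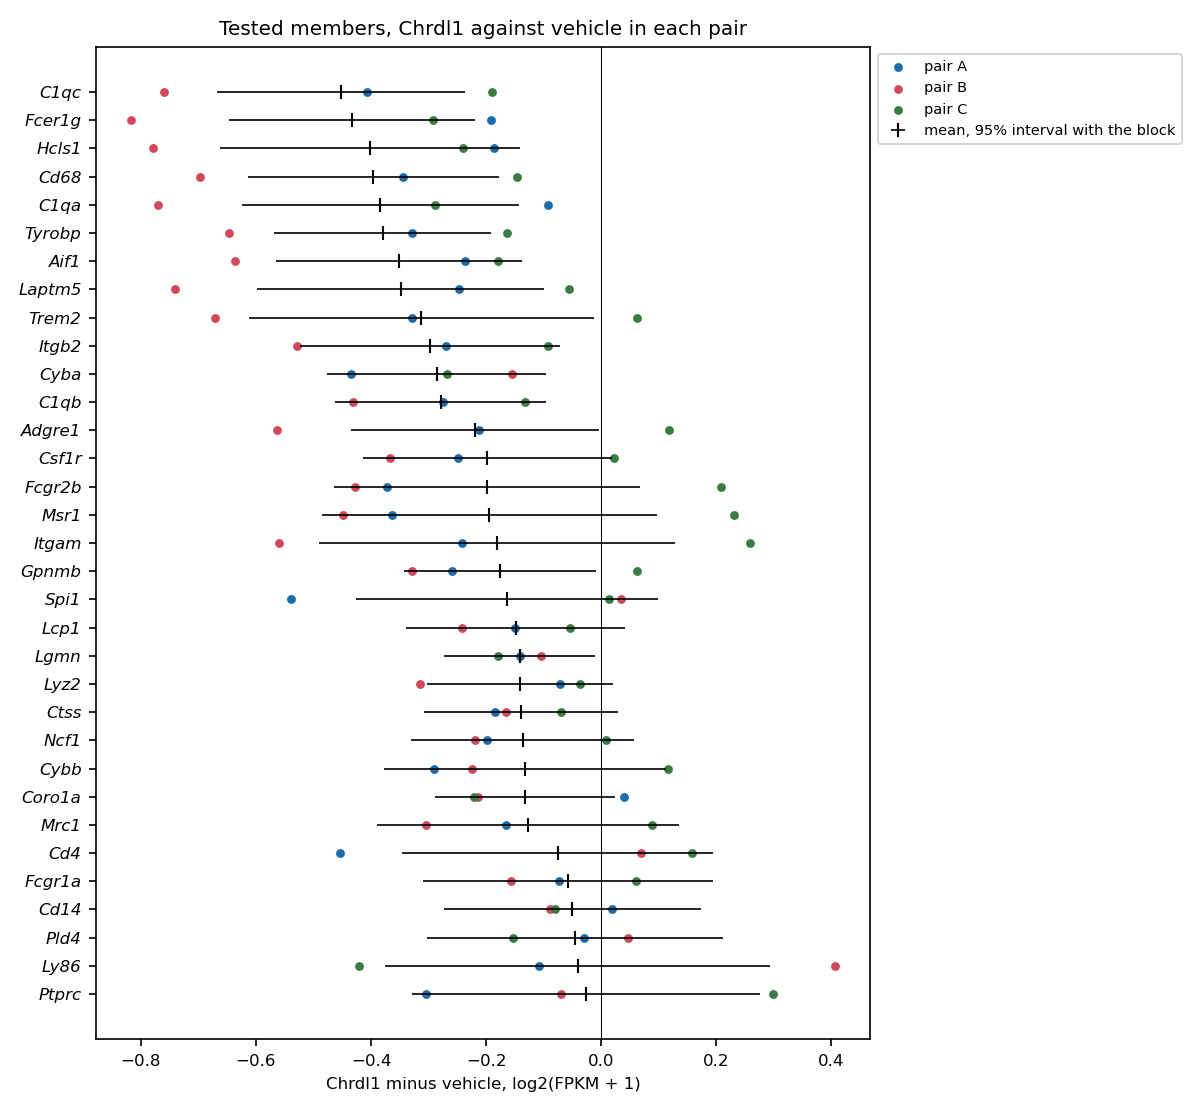
Chrdl1 minus vehicle in log2(FPKM + 1) (horizontal axis) for the 33 tested members (vertical axis, ordered by the mean): coloured points are the 3 pairs, and the black mark and bar are the mean and its 95% interval from the fit with the title code as a replicate block. The means run from -0.45 for C1qc to -0.026 for Ptprc, and the pair C points lie on both sides of 0.

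With the title code as a replicate block, the SEs of the members had a median of 0.10, and again 0 of 33 passed. The smallest limma adjusted p among them was 0.538, for C1qc. At an unadjusted p under 0.05 were 15 members, all lower, where 4.19% of tested transcripts were. That count was 11 with quantile normalization and 6 with voom, both with the block. Of all 10390 tested transcripts, 374 and 505 were at an unadjusted p under 0.05 in those fits, in either direction. The members share the RNA of their libraries, so those counted are not independent of each other. The 15 comprised the 3 C1q chains, Fcer1g, Tyrobp, Trem2, Aif1, Itgb2, Cyba, Cd68, Lgmn, Laptm5, Gpnmb, Hcls1 and Adgre1. C1qc was at -0.45 ± 0.10 with a 95% interval of -0.67 to -0.24 and pair values of -0.41, -0.76 and -0.19. Fcer1g was at -0.43 ± 0.10, -0.65 to -0.22, with pair values of -0.19, -0.82 and -0.29, and Tyrobp at -0.38 ± 0.087, -0.57 to -0.19, with -0.33, -0.65 and -0.16. With voom and the block the differences were smaller, at -0.29 for C1qc, -0.26 for Fcer1g and -0.23 for Tyrobp. Without pair B they were -0.30, -0.24 and -0.25. Aif1 had pair values of -0.24, -0.64 and -0.18. Pair B gave the largest fall for each of these 4 genes and rested on the fewest reads, for example 138 and 117 for Fcer1g. In fits with the block on only 2 pairs, 0 members passed without pair B or without pair C. Without pair A, 1 did, Fcer1g (limma adjusted p = 0.00403), with 25 of all tested transcripts called. Its values in the 2 remaining pairs were -0.82 and -0.29. A blocked fit on 2 pairs has almost no replication left, so its p-values and counts are not a reliable measure of the spread.

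Members of 1 role did not always move together with Chrdl1. Among the identity genes Csf1r was at -0.25, -0.37 and 0.023 and Spi1 at -0.54, 0.035 and 0.014, so that Spi1 was lower in pair A alone. Among the surface genes Itgb2 was lower in all 3 pairs (-0.27, -0.53 and -0.093), while Itgam was at -0.24, -0.56 and 0.26, Cd4 at -0.45, 0.069 and 0.16 and Ptprc at -0.31, -0.069 and 0.30. The Fc receptor Fcgr2b was at -0.37, -0.43 and 0.21 and Fcgr1a at -0.074, -0.16 and 0.060. Cd14 was at 0.019, -0.089 and -0.080, and Ly86, on few reads, was at -0.11, 0.41 and -0.42. Of the oxidase genes Cyba was lower in all 3 (-0.44, -0.15 and -0.27) and Ncf1 in 2 (-0.20, -0.22 and 0.0081). Gpnmb was at -0.26, -0.33 and 0.063 and Lgmn at -0.14, -0.10 and -0.18. Of the cytoskeletal genes Lcp1 was at -0.15, -0.24 and -0.054 and Coro1a at 0.039, -0.21 and -0.22. Msr1 was at -0.36, -0.45 and 0.23 and Adgre1 at -0.21, -0.56 and 0.12. In pair C the sign varied from gene to gene, and in pairs A and B most values were negative.

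In pair C the difference also went with transcript length. The rank correlation with length was 0.39 over all tested transcripts and 0.59 over the 33 members in pair C, against 0.028 and 0.12 in pair A and 0.026 and 0.21 in pair B. The 12 members under 1200 bases, such as Tyrobp and Fcer1g, had a median of -0.17 in pair C, the same as the -0.17 of all tested transcripts of that length. The 11 members from 1200 to under 2000 bases were at 0.014 against -0.11 for all tested transcripts of that length. The 10 members of 2000 bases and over, such as Itgam and Adgre1, were at 0.043 against -0.0022. In pairs A and B the 12 short members were at -0.26 and -0.64, against -0.016 and -0.025 for all short transcripts. The mural and fibroblast sums with Chrdl1 were 0.933, 0.677 and 0.944 times those of vehicle, so that pair B was again the lowest, and the RGC sums were 1.00, 1.00 and 0.885 times. The part of transcript length and of other cells in the members' differences was not tested.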

How the data were processed

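RNA of 6 RGC culture libraries was measured, 3 treated with Chrdl1 and 3 with vehicle, as stranded mRNA libraries per the labels' protocols. The values are FPKM as the authors deposited them, beside transcript lengths. The submitters' processing notes name FastQC, STAR 2.4.0k, HOMER 4.8.3 and build rn6. An annotation release was not given in the sources used here. Read totals were recovered as the value at which FPKM times length gives whole reads: at least 99.96% of values above 0 were whole within 0.00051 FPKM, where 3.82% to 6.88% would be by chance.

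Transcripts reaching 1 FPKM in 3 or more libraries entered limma 3.58.1 (R 4.3.3, lmFit and eBayes with trend, two-sided) on log2(FPKM + 1), with Benjamini-Hochberg adjustment over all 10390. Differences are on that scale, which understates the change of low genes. Treatment was the only term of the Chrdl1 comparison; the code comparison had code and treatment. Deviations from the group means of libraries sharing a title code correlated at 0.82, 0.86 and 0.84 over tested transcripts, so the codes were taken to pair the libraries. Python 3.11.15 with pandas 2.3.3 was used for the rest.

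The members and lists were chosen with earlier results of these data known. Every member is named; library values are given for the 2 of each role with the highest mean FPKM and for others a result turned on, and for the 6 highest genes of the other macrophage list. Alternatives were other pseudocounts, filters, scalings, voom (limma's model for reads, here with a trimmed mean of M-values scaling), the replicate block and leaving out libraries. The 14 members with no promoter entry have no sequence here.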

Additional observations from a re-analysis of the deposited data

How the results depend on the processing

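Depth limits the lowest values most: in pair B, Ly86 rested on 1 and 9 reads and Pld4 on 4 and 8. With 2 libraries per code, each pair's level rests on 2 values. In each alternative with all 6 libraries, 0 members were called for Chrdl1, and 27 of 28 (filter at FPKM of 5) to 33 of 33 tested members (median centring, voom) for the codes, or 33 of 37 with no filter. For the codes, leaving out 1 library gave 32 to 33 members, and 3148 (without the Chrdl1 library of pair A) to 5581 of all tested transcripts. The replicate block left the Chrdl1 count at 0 and its median at -0.18. The blocked fits on 2 pairs, chosen after the data were seen, called 25 transcripts and 1 member without pair A and 34 transcripts and 0 members without pair B. Those fits have almost no replication left, so their counts are not reliable. The median over members was -0.45 with voom and -0.098 with voom and the block. Dropping 1 library unbalances the codes, and moved it from -1.03 (without the vehicle library of pair B) to 0.66 (without the Chrdl1 library of pair B). It was 0.14 without the vehicle library of pair A, 0.25 without that of pair C, -0.52 and -0.75 without the Chrdl1 libraries of pairs A and C, and without a whole pair -0.15, -0.13 and -0.29 for A, B and C. Signs turned for Ptprc with quantile normalization (0.015, also with the block) and blocked voom (0.048), for Fcgr1a with blocked voom (0.011), and for Ly86 at a pseudocount of 0.1 (0.31) and with voom (0.12); the cause was not tested. Leaving out 1 library turned the sign of 32 members. The low pair B then weighs differently in the vehicle and Chrdl1 groups, so these turns cannot tell how stable the Chrdl1 difference is. Leaving out a whole pair turned the sign of Spi1, Ptprc and Cd4 (pair A), Itgam (pair B) and Ly86 and Pld4 (pair C). The lowest and highest values were Adgre1 -1.33 to 1.07, Aif1 -1.33 to 0.77, C1qa -1.59 to 1.02, C1qb -1.41 to 0.92, C1qc -1.75 to 1.00, Cd14 -0.78 to 0.70, Cd4 -1.03 to 0.81, Cd68 -1.15 to 0.51, Csf1r -1.15 to 0.83, Ctss -1.31 to 1.04, Cyba -1.10 to 0.46, Cybb -0.95 to 0.73, Fcer1g -1.38 to 0.70, Fcgr1a -0.62 to 0.55, Fcgr2b -0.93 to 0.65, Gpnmb -0.94 to 0.67, Hcls1 -1.07 to 0.46, Itgam -0.74 to 0.57, Itgb2 -0.99 to 0.52, Laptm5 -1.27 to 0.77, Lcp1 -0.91 to 0.66, Lgmn -0.53 to 0.23, Ly86 -0.74 to 0.43, Lyz2 -1.15 to 0.95, Mrc1 -0.71 to 0.54, Msr1 -0.75 to 0.42, Ncf1 -1.04 to 0.81, Pld4 -0.80 to 0.66, Ptprc -0.50 to 0.47, Spi1 -1.03 to 0.60, Trem2 -0.91 to 0.46 and Tyrobp -1.30 to 0.67. Coro1a alone kept its sign with any 1 library left out.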

Other observations

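Of the 58 tested genes of the other macrophage list, 24 were called higher in pair C than in A and 1 lower (limma), where 21.0% and 9.94% of all tested transcripts were. The genes that follow were picked after their values were seen and stand for no group. Il1b, the interleukin-1 beta gene, was at 24.3, 5.86 and 49.3 FPKM in vehicle and 19.97, 4.16 and 40.8 FPKM in Chrdl1 libraries. The chemokine gene Ccl4 was at 17.2, 2.75 and 41.1 FPKM in vehicle and 15.4, 3.82 and 35.5 FPKM in Chrdl1 libraries, and Spp1, or osteopontin, at 26.2, 7.77 and 52.6 FPKM in vehicle and 23.4, 7.04 and 52.9 FPKM in Chrdl1 libraries. For these 3 genes both libraries of pair C were above both of pair A, which were above both of pair B. Tnf was listed at 0 in all 6 libraries. Cd200r1, the receptor of the neuronal ligand Cd200, was at 2.60, 0.634 and 5.52 FPKM in vehicle and 1.71, 0.0900 and 5.72 FPKM in Chrdl1 libraries, with the same order of pairs.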
